A study of Mus musculus with 5 samples.

Results

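The cytosolic ribosomal protein genes of the mouse are described here across 5 single-cell RNA-seq libraries of submandibular salivary gland cells. Members were chosen by symbol alone: Rpl or Rps with a number and at most the letters a, b, l, x or y, plus Rpsa, Rplp0, Rplp1 and Rplp2. The symbol rule found 81 genes, of which 31 encode proteins of the small subunit, 47 proteins of the large subunit and 3 the acidic P-stalk of the large subunit. They stand among 31053 genes in the list used for the 7-day and tissue libraries and 32285 genes in the list used for the 11-day library, and 30406 genes were in both.

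All libraries came from C57BL/6 mice, and each condition had 1 library, so no test between conditions was possible. The 7-day libraries were mouse salivary gland organoids (mSGOs), grown in Matrigel from dissociated gland cells of mice aged 8 to 12 weeks and passaged once. They were untreated control mSGOs, mSGOs irradiated with 7 Gy of photons on day 5, and mSGOs irradiated with 7 Gy of protons on day 5, each pooled from 4 animals. Untreated 11-day mSGOs came from 4 animals. Fresh tissue was unirradiated gland of mice aged 8 to 12 weeks, dissociated without culture. The labels used here give no age for the 11-day library. In every library 45000 cells that excluded propidium iodide were sorted before 3′ droplet library construction.

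The cytosolic ribosome is assembled in the nucleolus from ribosomal RNA and ribosomal proteins, nearly all present in a single copy per particle, and the finished particle translates messenger RNA in the cytoplasm. Most ribosomal protein mRNAs start with a C followed by an uninterrupted run of pyrimidines, the 5′ terminal oligopyrimidine (5′TOP) tract, through which their translation responds to growth signals. Secretory acinar cells translate saliva proteins on ribosomes bound to the endoplasmic reticulum, and growing epithelial cells make ribosomes for their own division. Malat1 is a long non-coding RNA kept in the nucleus, and its share of a barcode's molecules was used here as a measure of nuclear RNA in that barcode.

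The start sites of members with long or named tracts are shown because the 5′TOP tract is the feature these genes are known to share. Each window runs from 10 bases before the first transcribed base to the 20 bases that begin with it, read 5′ to 3′ on the strand of the gene, and capitals mark the longest run of C and T that begins with C. Sequences are from RefSeq on GRCm38.p6.
Rpl15, chr14:18270967-18270996, minus strand: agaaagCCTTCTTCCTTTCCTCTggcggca
Rpl35, chr2:39005112-39005141, minus strand: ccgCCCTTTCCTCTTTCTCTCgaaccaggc
Rps10, chr17:27635225-27635254, minus strand: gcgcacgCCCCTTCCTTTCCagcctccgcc
Rps6, chr4:86857348-86857377, minus strand: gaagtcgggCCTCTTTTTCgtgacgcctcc
Rps27, chr3:90213629-90213658, minus strand: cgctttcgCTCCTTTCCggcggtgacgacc
Rpl38, chr11:114668570-114668599, plus strand: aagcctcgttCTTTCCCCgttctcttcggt
Rps15a, chr7:118116128-118116157, minus strand: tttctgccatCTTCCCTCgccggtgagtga
Rps27l, chr9:66946076-66946105, plus strand: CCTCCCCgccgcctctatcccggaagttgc

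Of the 81 members, 61 had a RefSeq start in the table used, and 13 of them (21.3%) had a C followed by at least 4 pyrimidines exactly at a listed start, against 3.01% of 27025 genes in the table. A run of at least 8 pyrimidines that began with C lay anywhere in the window of 23 members (37.7%) and of 10.1% of all genes. Rpl38 and Rps15a began the run at the listed first base. In Rps27l, the paralog of Rps27 named below, no run began at either of its 2 listed starts, and the run shown lies wholly before the first of them. Only the strand of the gene was read, a match describes the letters in the window and a listed start need not be the start used in these cells.

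The matrices held 7151 barcodes for the control, 19189 for the photon, 18635 for the proton, 14266 for the 11-day and 13547 for the tissue library, of which 6494, 15610, 15325, 9484 and 1402 were kept. The tissue library lost 11597 barcodes with under 200 detected genes. Kept barcodes held between 5932095 and 32070703 molecules counted by unique molecular identifier (UMI) per library, with a median of 898.5 to 1049 UMIs per barcode in the 7-day libraries, 3025 in the 11-day library and 2385.5 in tissue. No 2 libraries shared more than 69 kept barcodes. Summed acinar markers were near 0 in the organoid libraries (8.31 to 30.9 CPM, in which UMIs are scaled to equal library totals) and reached 32336 CPM in tissue, where summed basal markers were at 32.9 CPM against 4078 to 9447 CPM in mSGOs. Malat1 took 1% of UMIs or more in 15.97% of the control, 10.0% of the photon, 8.95% of the proton, 98.8% of the 11-day and 11.3% of the tissue barcodes.

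Ribosomal protein genes took the largest share of UMIs in control 7-day mSGOs, a slightly smaller share in both irradiated libraries, a much smaller one in 11-day mSGOs and the smallest in fresh tissue. The share of UMIs was 35.7% (95% Clopper-Pearson interval 35.66 to 35.71) in control 7-day mSGOs, 33.4% after photons and 32.5% after protons. It was 17.1% in 11-day mSGOs and 3.33% (3.31 to 3.34) in fresh tissue. These intervals cover counting error only, as does every interval below, since 1 library per condition leaves the spread between cultures unknown. The order was the same for the median over barcodes, which was 37.2%, 35.1%, 34.03%, 16.8% and 2.57%, and the interquartile range ran from 34.9% to 39.4% in the control and from 32.3% to 35.6% after protons, so the barcodes of these 2 libraries overlapped. In sums over a library, fewer cells of a type and less RNA per cell cannot be told apart.

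The small subunit genes held 15.2% of control, 14.1% of photon, 13.7% of proton, 7.60% of 11-day and 1.43% of tissue UMIs. The large subunit genes held 19.2%, 18.1%, 17.5%, 8.91% and 1.74%, and the P-stalk genes 1.32%, 1.29%, 1.32%, 0.631% and 0.161%, in the same order of libraries. In that order, the ratio of small subunit UMIs to those of the large subunit and P-stalk genes together was 0.738, 0.727, 0.729, 0.797 and 0.750. Both subunits thus differed between libraries together. Of the 50 genes with the most UMIs, 39 were members in the control and 14 in tissue. There, Mucl2, Scgb1b27 and Scgb2b27, which encode secreted proteins, held 65.1% of all UMIs, and with these 3 genes left out of the total the members' share of tissue UMIs was 9.55%.

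The levels of most members lay well above the counting floor. At least 1000 CPM were reached by 68 members in the control, 67 after photons, 66 after protons, 57 at 11 days and 1, Rps24, in tissue. The median member was at 4223 CPM in the control, 4032 after photons, 3662 after protons, 1956 at 11 days and 396 in tissue. The 3′ UMIs count transcript ends and were not divided by gene length, so levels are compared between libraries and not between genes. Rpl3l, Rpl10l and Rpl39l, paralogs known from striated muscle and testis, had between 0 and 6 UMIs in each library, and where a library had 0 UMIs the floor of 3 counts allowed up to 0.506 CPM.

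The first question was how barcodes rich in nuclear RNA differed from the rest. In control 7-day mSGOs the members held 39.1% of UMIs in the 919 barcodes without Malat1, 39.5% where Malat1 was above 0 but under 0.3%, 35.6% from 0.3% to under 1%, 31.1% from 1% to under 3% and 31.7% at 3% and over. The share was thus lower in both bins from 1% on than in the others. After photons the 5 bins held 35.5%, 36.2%, 34.7%, 28.6% and 28.8%. After protons they held 34.7%, 35.1%, 33.2%, 26.6% and 27.9%, which is the same step between the bins below and above 1%. In 11-day mSGOs, where 42 barcodes were under 0.3% and 9369 at 1% and over, the share was 28.6% in the former and 17.1% in the latter. Of those 42 barcodes 30 belonged to 1 small cluster, described below, in which they had a share of 36.8%, and the 23 barcodes with Malat1 above 0 but under 0.3% were at 23.3%.

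In fresh tissue the pooled shares went the other way. Its barcodes under 0.3% Malat1 gave 2.34% to the members, and those at 1% and over gave 8.92%, from 1188 and 158 barcodes. The difference between barcodes at 1% and over and those under 0.3% was -7.89 percentage points in the control, -7.30 after photons, -7.18 after protons, -11.5 at 11 days and 6.58 in tissue. Beside these differences, the control barcodes at 1% and over had a median of 5841 UMIs and 1.40% mitochondrial UMIs, against 872 UMIs and 0.254% in those under 0.3%, and the irradiated libraries were split likewise. Within barcodes of 5000 UMIs and over the control shares were 32.1% and 40.4%, and from 1000 to under 2000 UMIs 21.8% and 36.9%, so the control sign was the same at both depths. After photons the shares at 5000 UMIs and over were 29.5% and 38.5%, and after protons 28.4% and 37.1%. In tissue they were 9.69% and 1.501% at 5000 UMIs and over, and 8.305% and 2.66% from 2000 to under 5000 UMIs. From 1000 to under 2000 UMIs the pooled tissue shares were 3.89% (31 barcodes) and 3.63% (365 barcodes), in the same order but close together. The medians over barcodes, 1.83% and 3.03%, had the opposite order, so the tissue direction was not clear at that depth. The part of Malat1 and mitochondrial UMIs in the denominator was measured directly: without them the control, photon and proton differences were -5.90, -4.69 and -4.42 points.

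**Figure D1:**
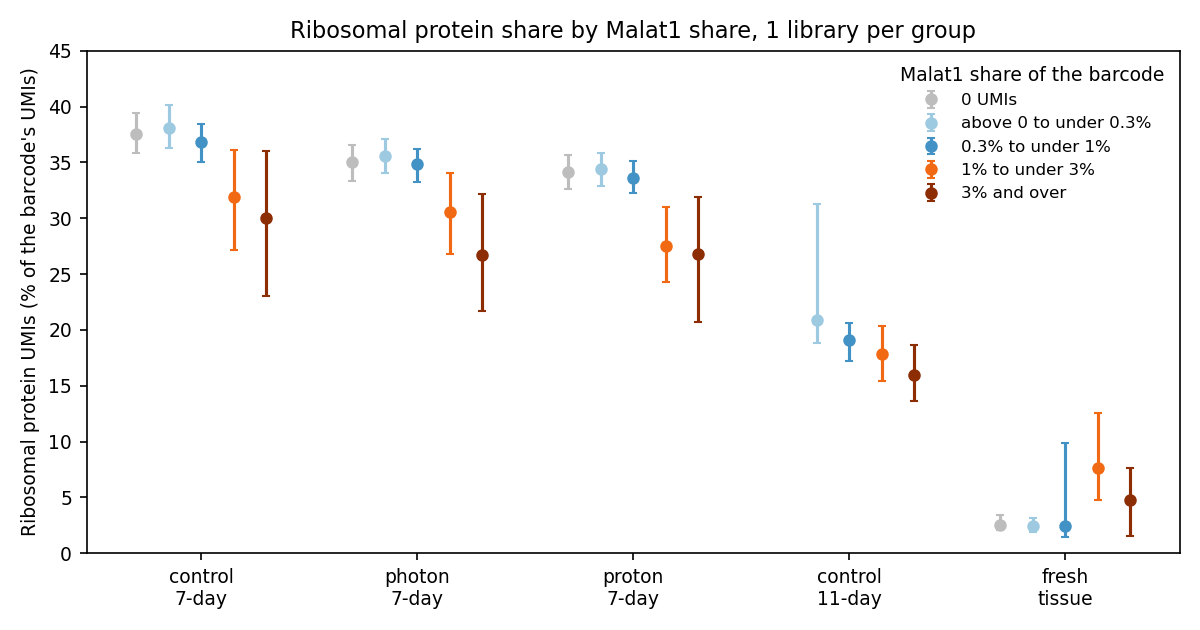
Share of a barcode's UMIs that fell on the 81 ribosomal protein genes (%, vertical axis) in each library, by bin of the barcode's Malat1 share, with points at the median over barcodes and bars from the lower to the upper quartile. In the 7-day libraries the medians at 1% and over stand below the others (31.9% and 30.1% against 37.5% without Malat1 in the control), and in fresh tissue they stand above (7.65% and 4.73% against 2.54%), where the quartiles at 3% and over, from 1.55% to 7.61%, take in those without Malat1, from 2.08% to 3.41%.

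The members did not share this step evenly. The share that each took of all member UMIs was compared between control barcodes at 1% Malat1 and over and those under 0.3%. Rps24, a small subunit protein, was lower at 1% and over, with log2 values of -0.35 in control, -0.23 in photon and -0.21 in proton mSGOs. Rps27l was at -0.32, -0.15 and -0.23, and Rpl24, Rpl6 and Rpl14, all of the large subunit, were at -0.30, -0.29 and -0.26 in the control. Higher parts were taken by Rps12 (0.91, 0.40 and 0.37), Rpl23a (0.70, 0.23 and 0.17) and Rpl5 (0.56, 0.23 and 0.08). Rps25 stood at 0.56, 0.18 and 0.08, while Rps26 stayed high in all 3 libraries at 0.56, 0.51 and 0.49. Of 76 members with enough UMIs, 54 had the same sign in the 3 libraries, 24 of them higher and 30 lower. The values are parts of the members' own total, so higher parts go with lower ones and the count has no counterpart over all genes. Across these members, which are not independent replicates, Spearman's rho between value and coding length was 0.21 in control, 0.29 in photon and 0.38 in proton mSGOs. The 10 genes named here were chosen by their size in the control, so their values there are a description. In 11-day mSGOs Rps26 was at -0.36 and Rps12 at -0.20, the other way.

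The comparison of photon with control mSGOs asks what differed 2 days after irradiation. The median member that passed the filter on low counts (76 members, 200 UMIs or more over both libraries, and 20 CPM in the higher) was slightly lower after photons, at a log2 ratio of -0.08, while the median of all 4369 genes was 0.08. With barcodes thinned to 1000 UMIs the members' median was -0.021 and that of all genes 0.07. Of the members 57 were below 0, or 47 when thinned, where 34.8% of all genes were. Past a log2 ratio of 0.5, 1 member was higher and 0 were lower, where 4.39% of all genes were higher and 2.2% lower. Past 0.25, 3 members were higher and 5 lower, against 22.4% and 8.08% of all genes. In barcodes with at least 1% Malat1, 0 members were past 0.5 in either direction, where 4.42% of all genes were higher and 2.63% lower, and 2 were higher and 3 lower past 0.25, against 18.9% and 10.04%.

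Rps27 and its paralog Rps27l encode alternative small subunit proteins, and Rps27l is known as a target of p53. Rps27l (chr9:66853340-66856808 on GRCm39, plus strand) was at 525 CPM (514 to 537) in the control, 702 (692 to 712) after photons, 648 (638 to 658) after protons, 461 at 11 days and 166 in tissue. Both irradiated libraries stood above the control with intervals that did not overlap, at a log2 ratio of 0.42 (0.38 to 0.45) in photon mSGOs and of 0.30 (0.26 to 0.34) in proton mSGOs. In barcodes with at least 1% Malat1 these ratios were 0.48 and 0.29, but in those with at least 2500 genes they were 0.23 and 0.15, and with median-of-ratios scaling 0.33 and 0.20. Rps27 (chr3:90119819-90120977, minus strand) was at 116 CPM in the control, 174 after photons, 219 after protons, 115 at 11 days and 14.5 in tissue, and was the member past 0.5 after photons, at 0.59 (0.51 to 0.67). Its coding end is shared with the retrogene Rps27rt, at 63.5, 91.9, 49.8, 15.6 and 10.3 CPM in the same libraries, and reads that fit both could not be assigned here, so its level is uncertain.

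Rpl5 and Rpl11 form a particle with 5S ribosomal RNA that is known to bind Mdm2, the ubiquitin ligase of p53, when ribosome assembly is disturbed. Rpl5 was at 3641 CPM in the control, 4238 after photons, 3662 after protons, 1334 at 11 days and 299 in tissue. It was higher after photons (0.22) and level with the control after protons (0.01), but in barcodes with at least 1% Malat1 the ratios were 0.03 and -0.26, so the photon value was not the same in Malat1-rich barcodes. Rpl11 was at 3565, 2730, 3144, 3563 and 307 CPM and was the lowest member after photons at -0.39 (-0.40 to -0.37). Its ratio was -0.18 after protons, and -0.38 and -0.16 in Malat1-rich barcodes. The gene has 2 near-identical coding ends in the 7-day gene list that the 11-day list lacks. Rpl26 and Rpl23, also known to bind Mdm2, were within 0.25 of the control, with Rpl26 at -0.09 and -0.21 and Rpl23 at -0.02 and -0.15 after photons and protons.

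The P-stalk recruits elongation factors to the ribosome. Rplp0, its base, was at 8298 CPM in control, 8234 in photon and 8733 in proton mSGOs, Rplp1 at 2414, 2249 and 2422, and Rplp2 at 2517, 2390 and 1999. The ratios to the control were between -0.10 and 0.07 for Rplp0 and Rplp1, and Rplp2 was at -0.07 after photons and -0.33 after protons. Rps27a, which is made as a fusion with ubiquitin, was at 11179, 10610 and 10486 CPM, within 0.10 of the control in both. Rpsa, also known as the laminin receptor precursor, was at 7335, 6285 and 6771 CPM, and Rps6, the substrate of S6 kinase, at 2705, 2529 and 2516.

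After protons the members spread further from the control than after photons. The median of 77 members was -0.15 against 0.10 for all 4354 genes, and 58 members were below 0, where 31.5% of all genes were. Past 0.5, 4 were higher and 4 lower, against 4.66% and 2.3% of all genes. One of the 4 higher, Rpl27, reached the 20 CPM of the filter only in the proton library, so it could enter this count only as a higher gene. Past 0.25, 7 members were higher and 22 lower, where the background was 23.3% and 8.04%. The balance was different in barcodes with at least 1% Malat1, with 2 of 76 members higher and 10 lower past 0.5, against 4.28% and 2.93% of all genes, and 6 higher and 33 lower past 0.25, against 17.9% and 11.5%. Photon and proton libraries share their control, so these values stand side by side and are no independent repeats. With median-of-ratios scaling, which brings the median of all genes to -0.00 in both comparisons, the members' medians were -0.17 after photons and -0.25 after protons.

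The 4 members that were higher past 0.5 after protons were Rpl9, Rpl27, Rps27 and Rps12, each of which has a near-identical copy elsewhere in the genome. Rpl9, of the large subunit, was at 529 CPM in control, 484 in photon and 1158 in proton mSGOs, at 1.13 (1.09 to 1.16) against the control. Its copy Rpl9-ps6 was at 19.8, 22.6 and 48.2 CPM, so both stood highest after protons. Rpl27 was at 10.8, 14.9 and 24.2 CPM and Rps12 at 127, 141 and 207, with ratios of 1.10 and 0.70. Of the 44 members that passed and have no copy in that list, 0 were higher past 0.5 and 2 were lower, against 4.66% and 2.3% of all genes. This split was chosen after the data were seen, and copies outside the gene list were not searched. Fau and Rack1, ribosome parts that the symbol rule leaves out, were at -0.24 and -0.02 after protons.

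Proton and photon mSGOs, both irradiated on day 5 of culture, were also compared directly. With 1 library of each, radiation type cannot be told apart from differences between cultures or library preparations. The median member was at -0.02 and the median of all 4385 genes at 0.02, yet 4 members were higher and 6 lower past 0.5, where 0.684% and 0.821% of all genes were. Rpl27 is again among the higher and passed the filter only through the proton library. Past 0.25 there were 6 and 19 members, against 4.81% and 5.56% of all genes. The 6 lower members were Rps29, Rps28, Rps2, Rpl38, Rpl37a and Rps21.

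Rps29, a small zinc-binding protein of the small subunit, was at 1205 CPM (1187 to 1222) in control, 1461 (1446 to 1476) in photon and 860 (849 to 872) in proton mSGOs. The proton library was the lowest and the photon library the highest of the 3, and the ratio of proton to photon was -0.76 (-0.79 to -0.74). Rps28, at 2119, 2499 and 1514 CPM, and Rpl38, of the large subunit, at 2113, 2423 and 1597 CPM, had the same order and ratios of -0.72 and -0.60. Rps2, at 1093, 1148 and 720 CPM, was at -0.67. In barcodes with at least 1% Malat1 the 4 ratios were -0.78, -0.74, -0.64 and -0.66, close to those over all barcodes.

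**Figure D2:**
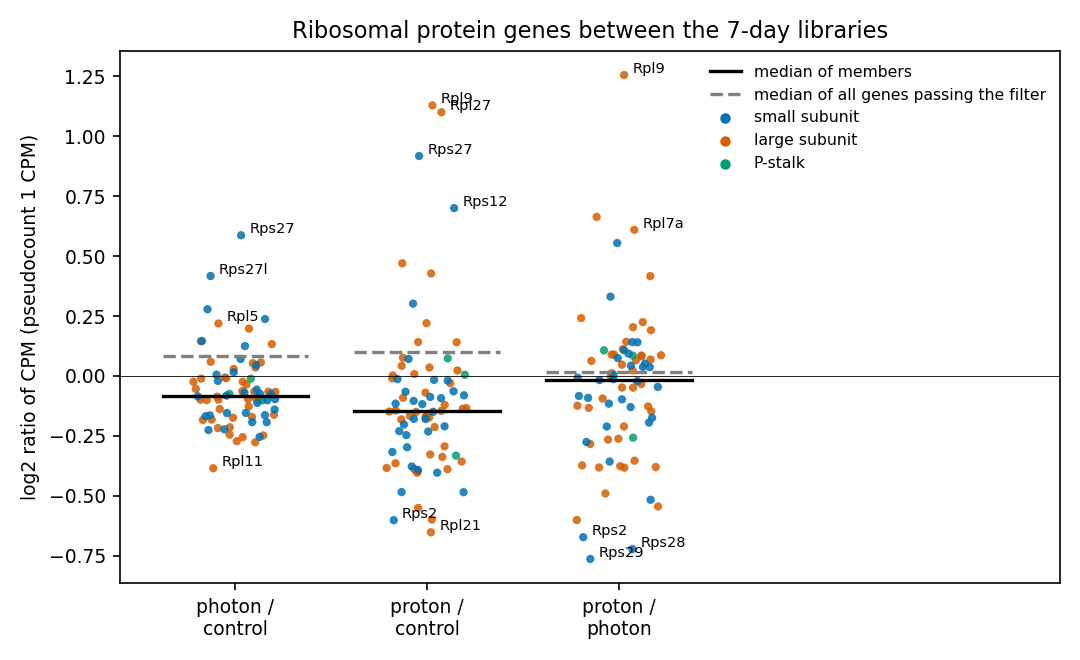
Log2 ratio of CPM (vertical axis, pseudocount 1 CPM) of each ribosomal protein gene that passed the filter, for the 3 comparisons between 7-day libraries. Points are genes coloured by subunit, solid lines are the medians of members (-0.08, -0.15 and -0.02) and dashed lines the medians of all genes (0.08, 0.10 and 0.02), and the points spread further in the 2 proton comparisons.

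Short members led the list of lower genes. The 9 members with a coding length under 300 bases were at a median of 0.20 after photons and -0.39 after protons against the control, and at -0.49 in protons against photons, where 8 of 9 were below 0, against 86 of 135 other genes of that length. The exception was Rps27, at 0.33. Members of 300 to under 450 bases were at -0.09 (28 genes), those of 450 to under 600 bases at 0.01 (19 genes) and those of 600 bases and over at 0.07 (21 genes) in the same comparison. Among members with no copy in the 7-day gene list the 4 medians were -0.50, -0.09, 0.01 and 0.06, from 6, 19, 7 and 12 genes. Other genes had medians of -0.07, -0.02, 0.03 and 0.02 in the same bins. Across genes, which are not independent replicates, Spearman's rho between coding length and ratio was 0.45 over the 77 members and -0.04 over 4264 other genes. Rps2, whose coding length is 879 bases, was an exception among the long members. The length bins were chosen after the data were seen, and whether library preparation, RNA quality or the cells had a part in them was not tested. Coding length stands here for the gene and leaves out the untranslated ends that a 3′ library reads.

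**Figure D3:**
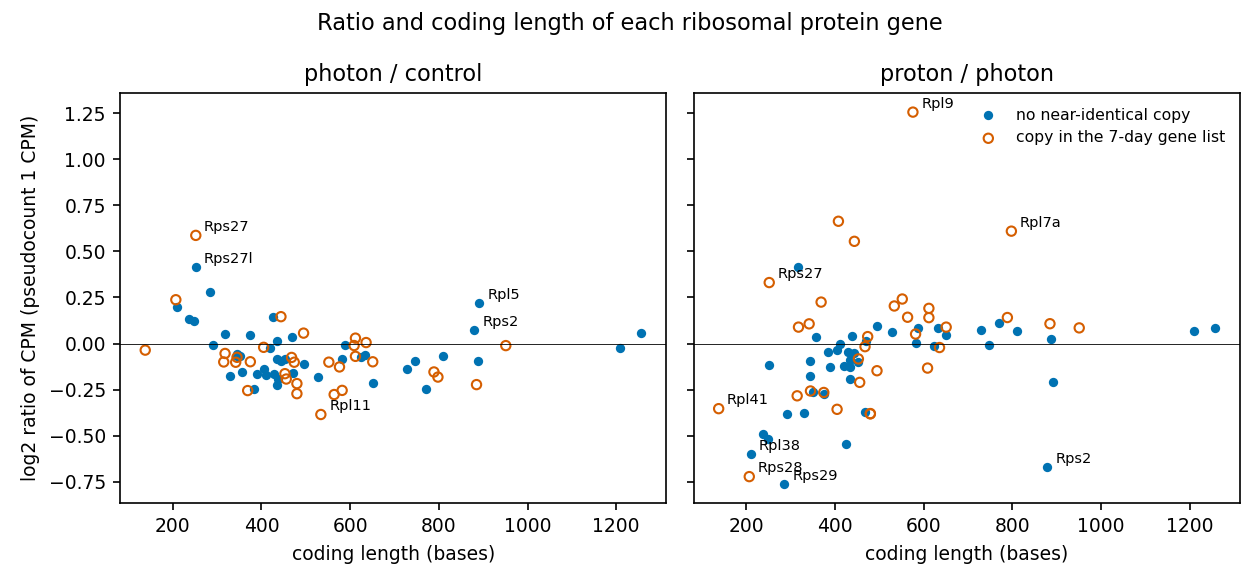
Log2 ratio of CPM (vertical axis) against coding length in bases (horizontal axis) of each ribosomal protein gene, for photon against control and proton against photon. Filled points have no near-identical copy in the 7-day gene list and open points have one. Genes under 300 bases lie mostly above 0 on the left panel (median 0.20) and below 0 on the right (median -0.49).

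Other genes of the translation machinery lay nearer to the median gene, which was at 0.08 after photons and 0.10 after protons. The 16 translation factors tested, which include Eef1a1, Eef2, Pabpc1 and Tpt1, were at a median of 0.04 after photons and 0.16 after protons, and 0 were past 0.5 after photons and 1, Pabpc1 at 0.58, after protons. All 16 were above 0 in protons against photons, at a median of 0.12, where 55.3% of all genes were above 0. Of 20 genes of ribosome biogenesis 12 passed the filter, with medians of 0.13 and 0.09 and 0 past 0.5 in either comparison with the control. Mitochondrial ribosomal proteins were at 0.09 (70 of 78 genes) and 0.05 (68 of 78), and mitochondrially encoded genes at -0.03 and -0.10. Summed cycling markers were at 385 CPM in control, 226 in photon and 260 in proton mSGOs, and their part in the member values was not tested.

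The 11-day library was compared with the 7-day control over genes in both lists. The median of 77 members was -1.15, while the median of all 6634 genes was 0.97, so the median member lay -2.12 from the median gene. That distance is not one at equal coding length, since Spearman's rho between length and ratio was 0.51 over 6489 other genes. In the length bins used above, from shortest to longest, other genes had medians of -0.09, 0.19, 0.33 and 1.18. Members had -1.70, -1.17, -0.998 and -1.14, lower than other genes in each bin. Past 0.5, 64 members were lower and 4 higher, where 10.7% of all genes were lower and 65% higher. Past 0.25 the members were 68 lower and 4 higher, against 15.1% and 73.3% of all genes. The small subunit was at -1.09, the large subunit at -1.16, and the P-stalk members Rplp0, Rplp2 and Rplp1 at -1.61, -1.48 and 0.17. With median-of-ratios scaling Rplp1 was at -0.82. Rps29, at 296 CPM against 1205, had the lowest ratio at -2.02, followed by Rps28 at -1.90, Rpl41 at -1.85, Rpl38 at -1.71 and Rpl37 at -1.70. Time point, software version and gene list all differ between these libraries, animals and run may differ too, and none of these can be told apart.

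The gene lists of these libraries differ around single members. The coding ends of 10 members have a near-identical copy in the 7-day list that is missing from the 11-day list, and Rpl36al overlaps Gm49383, a gene on the same strand, in the 7-day list only. The 4 higher members were all among these 11. Rpl27 was at 10.8 CPM in the control and 1453 CPM at 11 days (6.96), having passed the filter only through the 11-day library, Rps12 at 127 and 2884 (4.50), Rpl13a at 330 and 1809 (2.46) and Rpl36al at 151 and 738 (2.28). The copies counted few UMIs themselves, with Rpl27-ps3 at 36.9 CPM and Rps12-ps3 at 49.7 CPM in the control. The 11 genes had a median of 0.12, and the other 66 members that passed had a median of -1.22 with all 66 below 0 and 63 past -0.5. This split was chosen after the data were seen. Rps27 lay at -0.00 and Rps27l at -0.18, the next highest of those 66. Where Malat1 was at least 1%, Rps27 was at 0.01 and Rps27l at 0.20, and over all members that passed, those above 0 numbered 9 in place of 7.

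**Figure D4:**
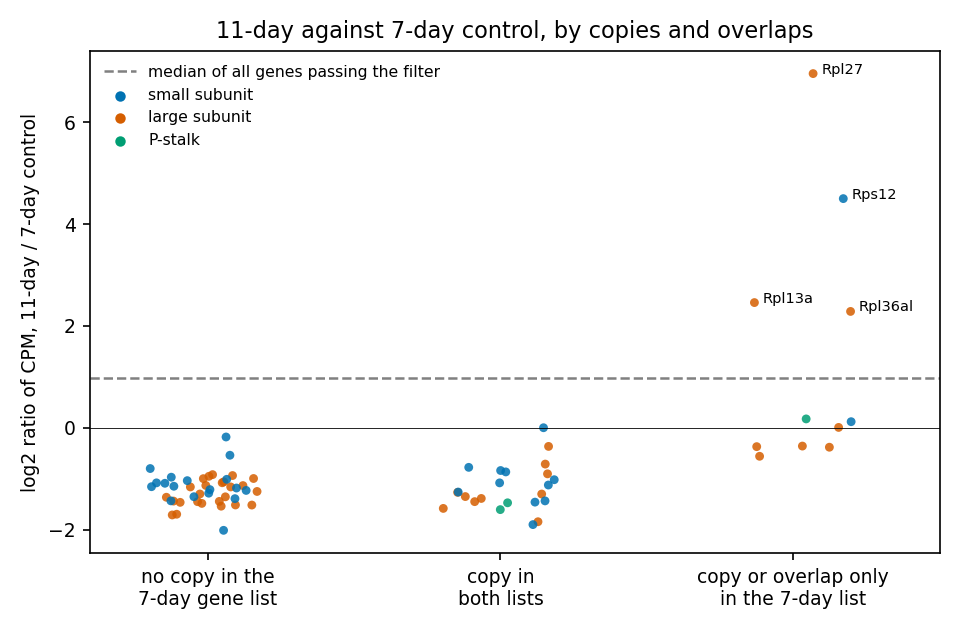
Log2 ratio of CPM of 11-day against 7-day control mSGOs (vertical axis) for each ribosomal protein gene, grouped by whether a near-identical copy or an overlapping gene is in the gene lists. The dashed line is the median of all genes (0.97), and the 4 genes above it (Rpl27, Rps12, Rpl13a and Rpl36al) have a copy or overlap only in the 7-day list.

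Translation factors were also lower at 11 days (median -0.75, 11 of 16 past -0.5), where 10.7% of all genes were. Of 16 biogenesis genes that passed, 9 (56.3%) were higher past 0.5 and 2 (12.5%) lower, near the 65% and 10.7% of all genes. Their median was 0.70, beside 0.97 for all genes. Mitochondrial ribosomal proteins were at 0.18 and mitochondrially encoded genes at 1.55. Of the 7-day control barcodes 15.97% had at least 1% Malat1 and of the 11-day barcodes 98.8%, and within such barcodes the members' median was -1.001 against 0.75 for all genes. Summed basal markers were at 8543 CPM in the control and 4078 CPM at 11 days, and luminal duct markers at 5757 and 8700 CPM, and their part in the members' values was not tested.

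All 76 members that passed were lower in fresh tissue than in control mSGOs past 0.5, where 87.4% of all genes were lower and 6.54% higher (89.9% and 7.29% past 0.25). The median member was at -3.43 and the median of all 4250 genes at -1.79, so the median member lay -1.65 from the median gene. In barcodes with at least 1% Malat1 these medians were -1.83 and -0.43, and 75 of 76 members were lower past 0.5, against 47.7% of all genes. The distance of the median member from the median gene was -0.95 in barcodes with at least 2500 genes. It was -2.51 with a filter of at least 10 UMIs over both libraries. Rpl10a (-4.02), Rpl24 (-4.00), Rps19 (-3.95), Rps12 (-3.87) and Rpl28 (-3.83) were lowest. Rps12 and Rps27 passed the filter only through the control library. Rps27l (-1.66), Rps29 (-1.93), Rpl36al (-1.98), Rplp1 (-2.24) and Rpl38 (-2.41) were highest, and on median-of-ratios scaling Rps27l turned to 0.21. Members under 300 bases had a median of -2.65 and those of 600 bases and over -3.56. Translation factors were at -3.01, biogenesis genes at -2.06 and mitochondrial ribosomal proteins at -1.62, while mitochondrially encoded genes were at 1.38.

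Among clusters of fresh tissue, built without the members, the share differed by 11.3 percentage points. It was 1.95% and 1.92% in the 2 acinar-like clusters (297 and 136 barcodes), 3.69% in red cell-like, 2.83% and 6.55% in the 2 endothelial-like and 8.68% in T and NK-like barcodes. The highest share, 13.2%, was found in a cluster of 50 barcodes led by S100a8, Retnlg and S100a9 that stayed unnamed. The 3 genes with the most UMIs took 76.4% of UMIs in the first acinar-like cluster and 17.0% in the unnamed one, and Mucl2 was among those 3 genes in every tissue cluster. The part of secreted gland transcripts from outside the cell in these shares was not tested. In the T and NK-like cluster, 10 barcodes with at least 1% Malat1 had a share of 17.4% and 46 barcodes under 0.3% a share of 3.61%. In the second acinar-like cluster the shares were 5.08% (41 barcodes) and 1.37% (62 barcodes). Of the other tissue clusters with at least 2 barcodes on both sides, a cluster led by Klk1b22 had 4.71% in 3 barcodes at 1% and over and 3.80% in 118 under 0.3%. The red cell-like cluster had 2.06% (2 barcodes) and 3.70% (262 barcodes) and the first endothelial-like cluster 2.43% (4 barcodes) and 2.86% (88 barcodes), so the direction was not the same in every cluster and rested on few Malat1-rich barcodes in these 3.

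Within tissue, Rps27l took 0.75% of member UMIs in the first acinar-like cluster and 0.93% in a cluster led by Klk1b21 and Klk1b27, kallikrein genes of duct cells, against 0.24% in the second endothelial-like cluster, 0.21% in T and NK-like barcodes and 0.22% in the unnamed cluster led by S100a8. Rplp0 took 3.49% in the second acinar-like and 1.43% in the second endothelial-like cluster. These shares rest on 29 to 120 UMIs of Rps27l and at least 213 UMIs of Rplp0.

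In 11-day mSGOs the cluster shares ran from 2.94% to 23.3% among clusters of 50 barcodes and more. The highest belonged to a myoepithelial-like cluster of 512 barcodes led by Acta2. Cycling-like barcodes were at 18.3% and a cluster led by Klk1b11 and Crisp3 at 12.8%. The lowest, with 109 barcodes, had a median of 761 UMIs, 10.8% Malat1 and 4.23% mitochondrial UMIs. A cluster of 33 barcodes stood apart at 35.8%, with a median Malat1 share of 0 and a median of 1169 UMIs, beside 35.7% in the 7-day control library.

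**Figure D5:**
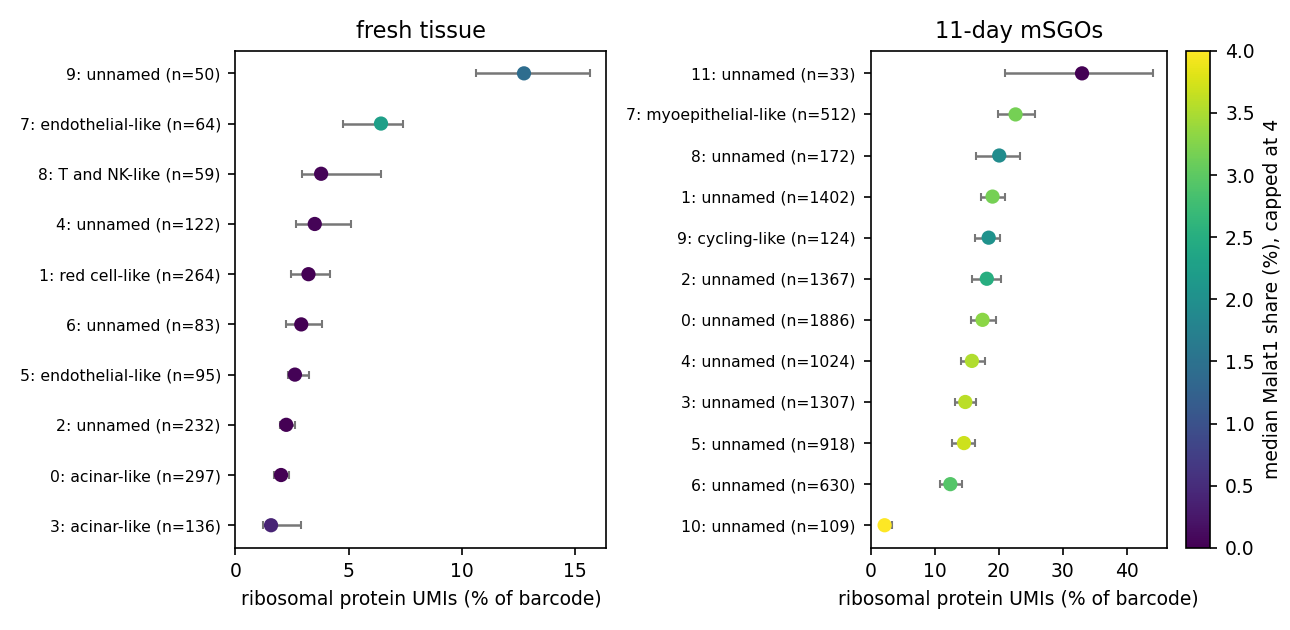
Share of a barcode's UMIs that fell on ribosomal protein genes (%, horizontal axis) in the clusters of fresh tissue and 11-day mSGOs, with points at the median over barcodes, bars from the lower to the upper quartile and colour for the median Malat1 share. Acinar-like clusters lie lowest in tissue, and the myoepithelial-like cluster is highest at 11 days among clusters of at least 50 barcodes.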

How the data were processed

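For each library the authors deposited whole-number UMI counts per gene and barcode, with no normalization, made with Cell Ranger. The submitters' processing notes name Cell Ranger 5 and mm10, and the file headers name software 3.0.1, but 7.0.0 in the 11-day matrix. The study's methods name GRCm39, so the build used for counting is uncertain. Only the barcodes with at least 200 detected genes and at most 5% mitochondrial UMIs were kept. The highest Scrublet scores, up to 0.8% per 1000 barcodes in each library, were then removed as doublets (378 control, 2674 photon, 2559 proton, 855 11-day and 16 tissue barcodes). Scanpy 1.11.5, leidenalg 0.10.2 and scipy 1.17.1 were used under Python 3.11.15.

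UMIs were summed over the kept barcodes. Ratios are log2 of CPM plus a pseudocount of 1 CPM, with exact conditional binomial intervals at 95%, and levels carry exact Poisson intervals. These calculations were tested on simulated data. The filter asked for 200 UMIs over both libraries and 20 CPM in the higher of them, and ratios past 0.5 and 0.25 were counted. Clusters (Leiden, resolution 0.8) were named from fixed markers. Gene positions and coding lengths (Ensembl canonical transcript) are from GENCODE vM39 on GRCm39. A copy is another listed gene with at least 95% identity over 60 bases to the last 200 coding bases of a member (blastn 2.17.0). Named members are those of known role, the paralogs, the 5 with the highest CPM in the control, the 5 highest and 5 lowest ratios per comparison, the 5 members at either end of the Malat1 comparison and those with 0 UMIs. Members and lists were chosen with earlier results of these data known. Alternatives changed the doublet, mitochondrial and gene filters, depth, denominator, pseudocount, scaling, count filter and resolution. One of the listed genes is not reported here.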

Additional observations from a re-analysis of the deposited data

Results flagged for a closer look

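The difference in the members' share of UMIs between barcodes with at least 1% Malat1 and those under 0.3% had a different sign in fresh tissue, pooled over depths, than in the organoid libraries. It was -7.89 percentage points in control 7-day mSGOs, -7.30 after photons, -7.18 after protons and -11.5 in 11-day mSGOs, against 6.58 in fresh tissue. Each value rests on 1 library, and the difference between tissue and mSGOs was not tested. The 11-day value rests on 42 barcodes under 0.3%, of which 30 belong to 1 cluster. In tissue barcodes of 1000 to under 2000 UMIs the medians had the opposite order, at 1.83% for 1% and over and 3.03% for under 0.3%. In tissue, the barcodes at 1% and over made up 59 of 64 barcodes in the second endothelial-like cluster and 39 of 50 in the unnamed cluster led by S100a8, against 0 of 297 in the first acinar-like cluster. Within the 5 tissue clusters with at least 2 barcodes on both sides, the share was higher at 1% and over in 3 and lower in the red cell-like and first endothelial-like clusters, which had 2 and 4 such barcodes.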

How the results depend on the processing

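Each value rests on 1 library per condition, so no paired analysis was possible and no replicate could be left out. Shares are given for control, photon, proton, 11-day and tissue libraries in this order, and alternatives that moved a value beyond its counting interval are printed. Without doublet removal the shares were 35.8%, 33.7%, 32.7% and, in tissue, 3.35%. With up to 10% mitochondrial UMIs they were 35.2%, 32.6%, 31.7% and 16.2%, and over all deposited barcodes 35.2%, 32.7%, 31.7%, 15.7% and 2.20%. In barcodes with at least 2500 genes they were 29.7%, 27.0%, 25.5%, 16.2% and 2.72%, and with at least 1% Malat1 31.5%, 28.8%, 27.8%, 17.1% and 8.92%. Thinned to 1000 UMIs they were 35.6%, 34.4%, 33.2% and, in tissue, 3.63%. Without Malat1 and mitochondrial genes in the total they were 36.8%, 34.6%, 33.6%, 18.2% and 3.40%, and without Mucl2, Scgb1b27 and Scgb2b27, an alternative chosen after seeing the data, 9.55% in tissue. The order of the 5 libraries was the same under each of these settings.

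Median member log2 ratios kept their sign under every alternative run. They are given for photon against control, proton against control, proton against photon, 11-day against control and tissue against control. With up to 10% mitochondrial UMIs the moved medians were -0.10, -0.16 and, at 11 days, -1.22. Over all deposited barcodes they were -0.16 for proton against control, -1.26 and -4.02. With at least 2500 genes they were -0.14, -0.24, -0.058 and -0.99. At 1% Malat1 and over they were -0.14, -0.21, -0.031, -1.001 and -1.83. Thinned to 1000 UMIs they were -0.021, -0.10, -0.035 and, in tissue, -3.33. Without Malat1 and mitochondrial genes the 11-day median was -1.11. With median-of-ratios scaling the medians were -0.17, -0.25, -0.036, -2.15 and -1.56. Over members with no copy, a choice made after seeing the data, they were -0.070, -0.16, -0.048 and -1.17.

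The Malat1 differences in barcodes of at least 2000 UMIs were -8.65, -8.67, -8.69 and, in tissue, 7.13 percentage points, and without Malat1 and mitochondrial genes -5.90, -4.69, -4.42, -11.1 and 6.95. At Leiden resolution 0.4 the range over clusters was 10.5 points in tissue and 21.8 points at 11 days. Of 2550 values of single named members under alternatives, 1462 moved by less than their counting interval, 1087 moved further, and 1 changed sign from a ratio past 0.5, Rps27l in tissue against control, at 0.21 with median-of-ratios scaling. Smaller ratios changed sign more often and are counted by the size of their movement. At 11 days Rps27l was at 0.20 with at least 1% Malat1, and Rplp1, Rps7 and Rpl11 were at -0.82, -0.88 and -0.99 with median-of-ratios scaling. After photons Rps12 was at -0.06 with at least 1% Malat1. The cause of these movements was not tested.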
